A study of Mus musculus with 4 samples.

Results

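Sp9 peaks that lay 5 to 50 kb from the nearest transcription start site (TSS) at embryonic day 16.5 (E16.5) and had no counterpart at embryonic day 13.5 (E13.5) are described here. They were chosen from the E16.5 peak list by 2 measured values, so neither value is a finding. The smallest distance to the TSS of an assigned gene had to exceed 5000 bp and be at most 50000 bp, and no assigned gene could have an E13.5 peak whose signed distance differed by 200 bp or less. This left 445 of the 6022 E16.5 peaks, called E16.5-only peaks below. The study used chromatin immunoprecipitation and sequencing (ChIP-seq) with a rabbit antibody to Sp9 on basal ganglia dissected from CD1 wild-type embryos of the mouse, with no other genotype and no treatment. For E13.5 and for E16.5 there was 1 ChIP library and, made without antibody, 1 input library, and how many embryos went into a library is not given in the labels. The E13.5 list held 5847 peaks. The lists hold mm9 distances but no coordinate, height or read total, so depth was unknown, and a peak missing from a list may still be bound weakly. No difference between the stages could be checked in replicates. Intervals cover counting error only, and peaks that neighbour each other are not independent. The p-values therefore compare classes of peaks in these libraries and not the stages. In dissected tissue, more cells with a bound site and stronger binding per cell cannot be told apart, and without expression values the tissue label could not be checked against marker genes.

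Sp9 belongs to the SP/KLF proteins, zinc finger factors that bind GC-rich DNA known as GC boxes. In the embryonic basal ganglia it is made in progenitors of the lateral ganglionic eminence and in the young neurons they give rise to, including medium spiny neurons, the projection neurons of the striatum. Between the stages compared, the tissue passes from a largely proliferating eminence to one with many young striatal neurons. Sites at these distances from a start site are where many enhancers lie, DNA elements that act on a promoter from afar, although a peak alone does not show enhancer activity.

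The sequences of the peaks themselves could not be read, because the lists give no positions. Sox2, Gad1 and Gad2 each had an E16.5-only peak within 50 kb, an E16.5 peak inside the promoter window and no E13.5 peak within 1 kb of the TSS. Their promoters are shown because the E16.5 list places Sp9 there as well. The sequences are from RefSeq (build GRCm38.p6), cover the 250 bases before the annotated start and run 5′ to 3′. Capitals mark the GC box core GGGCGG on either strand. The start site of this annotation may differ from that behind the listed distances.
Sox2 promoter, chr3:34649745-34649994 (+): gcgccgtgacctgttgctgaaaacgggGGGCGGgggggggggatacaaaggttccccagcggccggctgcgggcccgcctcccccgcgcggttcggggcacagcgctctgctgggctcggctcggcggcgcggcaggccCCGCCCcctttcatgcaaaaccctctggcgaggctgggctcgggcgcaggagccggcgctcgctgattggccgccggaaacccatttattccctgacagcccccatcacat
Gad1 promoter, chr2:70561879-70562128 (+): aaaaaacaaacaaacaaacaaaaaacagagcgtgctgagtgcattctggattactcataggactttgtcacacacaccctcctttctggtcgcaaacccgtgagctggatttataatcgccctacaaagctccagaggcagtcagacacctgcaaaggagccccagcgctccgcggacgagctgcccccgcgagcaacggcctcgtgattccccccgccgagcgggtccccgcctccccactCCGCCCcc
Gad2 promoter, chr2:22622077-22622326 (+): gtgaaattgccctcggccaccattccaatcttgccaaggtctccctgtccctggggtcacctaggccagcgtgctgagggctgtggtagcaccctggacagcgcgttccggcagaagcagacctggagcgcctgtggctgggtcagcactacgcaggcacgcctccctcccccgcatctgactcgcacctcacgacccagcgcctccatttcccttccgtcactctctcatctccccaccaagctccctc
The 250 bases shown held 2 GC box cores for Sox2, 1 for Gad1 and 0 for Gad2. The E16.5 promoter peaks were listed 137 bp upstream of the Sox2 TSS, 40 bp upstream of the Gad1 TSS and 20 bp downstream of the Gad2 TSS. The listed Gad2 position is therefore outside the bases shown, which end before the start.

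Of the 1199 E16.5 peaks at this distance, 445 (37.1%, 95% Wilson interval 34.4 to 39.9) were E16.5-only and 754 recurred at E13.5. The same comparison from the other side left 550 of 1307 E13.5 peaks (42.1%, 39.4 to 44.8) without an E16.5 counterpart. Across the whole E16.5 list 43.8% of peaks had no counterpart, from 66.7% within 1 kb of a TSS to 29.5% at 50 to 500 kb and 25.2% farther away. Within the 5 to 50 kb class, 86 of 192 E16.5 peaks at 5 to 10 kb were E16.5-only (44.8%, 37.9 to 51.9), against 70 of 202 at 40 to 50 kb (34.7%, 28.4 to 41.4). These 2 intervals overlap. The share was lowest at 30 to 40 kb, with 77 of 251 peaks (30.7%, 25.3 to 36.6). That interval does not overlap the one at 5 to 10 kb, and the change with distance was not tested. These shares include the loci dense in peaks described below and were not counted without them. Leaving those loci out moved the median distance of E16.5-only peaks from 22.7 to 25.5 kb. For recurring E16.5 peaks it moved from 25.4 to 25.8 kb.

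**Figure D1:**
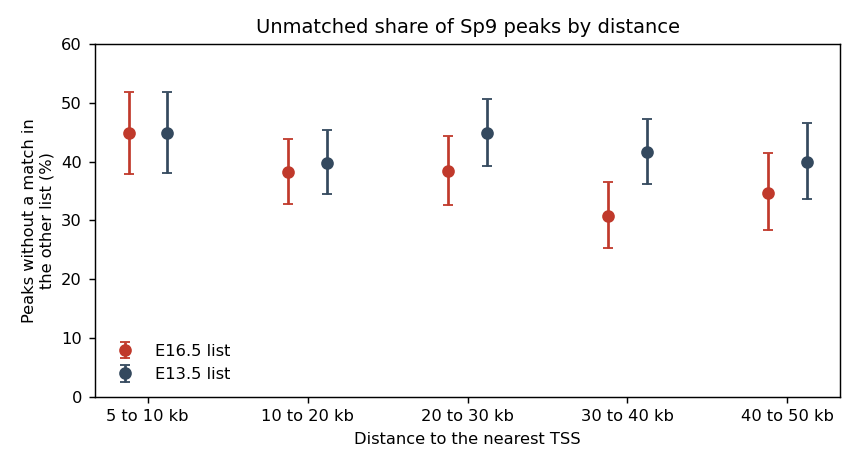
Share of peaks without a match in the other list (vertical axis, %) by distance to the nearest TSS (horizontal axis), for the E16.5 list (red) and the E13.5 list (dark blue); bars are 95% Wilson intervals, which cover counting error only. The E16.5 share was 44.8% at 5 to 10 kb and 30.7% at 30 to 40 kb, and the E13.5 share lay between 39.8% and 44.8%. Loci dense in peaks are included.

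Members close to the lower bound lay 5030 bp downstream of Gpr84 and 5035 bp downstream of Gm10354. Unmatched peaks 4891 bp from Casc3, 4844 bp from Ccdc54 and 4795 bp from Set fell just short of it. The farthest members lay 49757 bp upstream of Erbb4, 49738 bp downstream of Prdm16 and 49684 bp upstream of Adcy2. Unmatched peaks 50231 bp from Ndufb4, 50283 bp from Rnf34 and 50334 bp from Aqp11 were just too far.

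For 136 of the 445 E16.5-only peaks (30.6%), no assigned gene had any E13.5 peak. For 223 (50.1%), the closest E13.5 peak of an assigned gene was more than 5000 bp away. The other 86 (19.3%) had an E13.5 peak within 5000 bp, and for 31 of them (6.97% of all) it was at most 500 bp away. Nearest to the limit were the peaks 8006 bp upstream of Glis2, 46484 bp downstream of Cap2 and 26968 bp downstream of Gtf2h5, with gaps of 203, 206 and 207 bp. Peaks at Gm9874, Acsf3 and Kcns2 were kept out with gaps of 196, 193 and 189 bp. So a small part of the class is made of peaks that sit almost beside an E13.5 peak, and most of it is not.

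**Figure D2:**
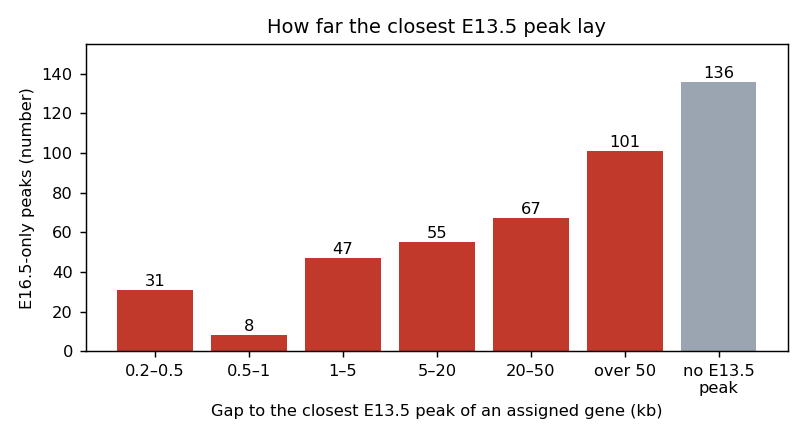
Number of E16.5-only peaks (vertical axis) by the gap to the closest E13.5 peak of an assigned gene (horizontal axis, kb, in classes of unequal width); the grey bar counts peaks whose assigned genes had no E13.5 peak. The grey bar is the tallest with 136 peaks, and 31 peaks lay within 0.5 kb.

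The E16.5-only peaks lay on both sides of their nearest TSS. Here downstream means on the transcribed side of the TSS, inside the gene or beyond it. Of the 445, 198 (44.5%, 39.9 to 49.1) were upstream, against 312 of 754 recurring E16.5 peaks (41.4%, 37.9 to 44.9) and 224 of 550 E13.5-only peaks (40.7%, 36.7 to 44.9). The side was not used to choose the peaks. The differences of 3.12 percentage points (95% interval -2.66 to 8.91) and 3.77 points (-2.40 to 9.92) did not pass (Fisher's exact test, two-sided, p = 0.304 and 0.246, adjusted p = 0.304 for both, Benjamini-Hochberg over 2 comparisons). With the outer bound at 100 kb both passed, with 6.76 points (adjusted Fisher's exact p = 0.00877) and 5.80 points (0.0218).

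Most E16.5-only peaks (412 of 445, 92.6%) were assigned to 2 genes. Of these 412, 214 (51.9%) lay upstream of 1 gene and downstream of the other, 130 (31.6%) downstream of both and 68 (16.5%, 13.2 to 20.4) upstream of both. Recurring E16.5 peaks gave 49.2%, 30.5% and 20.4% (17.6 to 23.5). Both start sites were within 50 kb for 133 of the 412 (32.3%, 27.9 to 36.9), against 152 of 712 recurring E16.5 peaks (21.3%, 18.5 to 24.5) and 82 of 506 E13.5-only peaks (16.2%, 13.3 to 19.7). The median sum of the distances to both start sites was 110.3 kb for E16.5-only, 133.8 kb for recurring and 164.6 kb for E13.5-only peaks. The share with a second gene close by was highest among E16.5-only peaks, a measure looked at after the data were seen and not tested.

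The peaks had 487 gene names within 50 kb, and 456 of the 21900 protein-coding genes (2.08%) were among them. Of the 487 genes, 449 had 1 such peak, 23 had 2 and 15 had 3 or more. A recurring E16.5 peak of this distance class was near 3.39% of protein-coding genes, and an E13.5-only peak near 2.39%. The 24 gene lists hold 438 genes, of which 29 (6.62%) had an E16.5-only peak within 50 kb, 60 (13.7%) a recurring one and 51 (11.6%) an E13.5-only one. Listed genes had a higher share than all protein-coding genes in each class. However, the lists were chosen with earlier results of these data known, so this comparison is a description only. The classes differ in their number of peaks, and the lists were not tested.

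**Figure D3:**
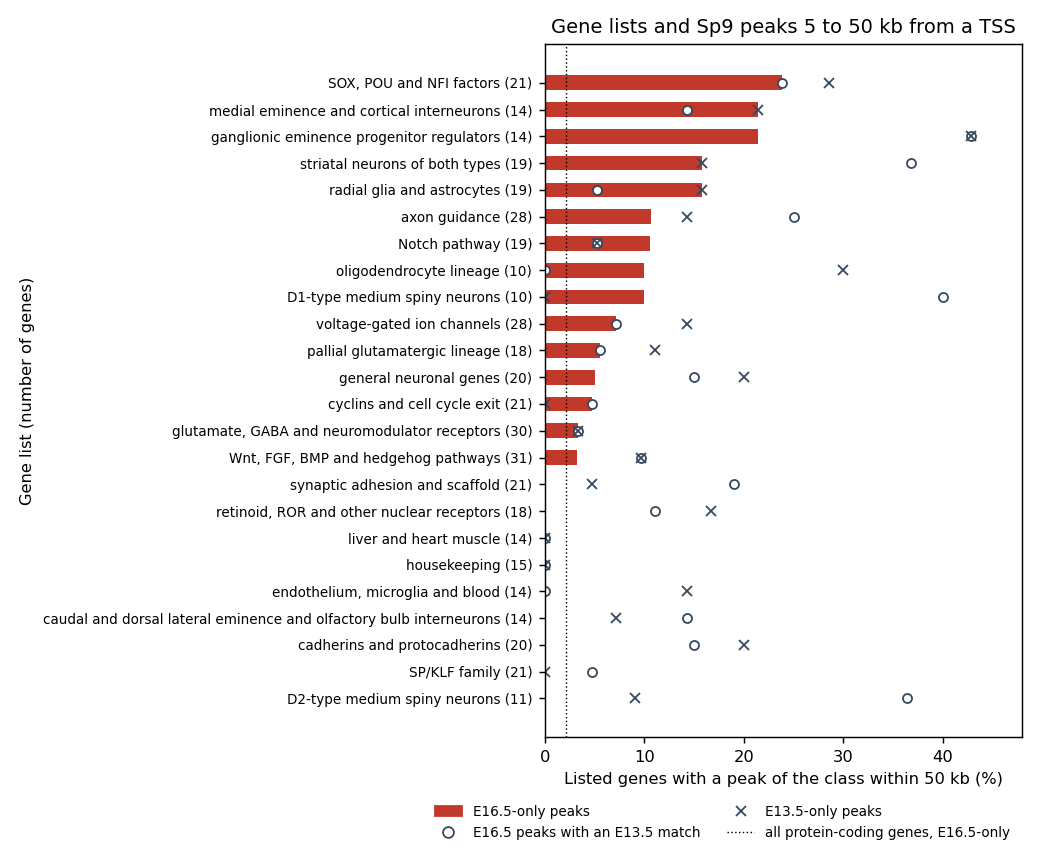
Share of each list's genes (horizontal axis, %; number of genes in brackets) with a peak 5 to 50 kb from a TSS within 50 kb of the gene: red bars for E16.5-only peaks, open circles for recurring E16.5 peaks, crosses for E13.5-only peaks; the dotted line is the 2.08% of all protein-coding genes near an E16.5-only peak. The bar of SOX, POU and NFI factors reaches 23.8%, with the circle at the same value and the cross at 28.6%, and 9 of the 24 lists had none.

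Of 21 genes of SOX, POU and NFI transcription factors 5 (23.8%) had an E16.5-only peak nearby (3 without the loci dense in peaks described below). The share was the same for recurring peaks (5 genes) and 28.6% for E13.5-only peaks (6 genes). Of all protein-coding genes, 2.08% were near an E16.5-only, 3.39% near a recurring and 2.39% near an E13.5-only peak. Sox2, a factor that keeps neural stem cells dividing, had 3 E16.5-only peaks. They lay 7285 bp upstream of its TSS and, on the other side, at 5929 and 14173 bp. The E13.5 list had peaks 4056 and 11660 bp downstream of Sox2, and neither came back within 200 bp. Further E16.5 peaks lay 3808 and 137 bp upstream. Within 50 kb of Sox2 the 2 lists therefore share no peak, whereas the far peaks at 145654 and 184442 bp upstream at E13.5 were listed again at 145657 and 184489 bp. At Sox21, a related SOX gene of neural progenitors, each list held 1 peak, 5459 bp downstream at E13.5 and 5768 bp downstream at E16.5, which is a gap of 309 bp. Pou3f3, a POU factor of the developing forebrain, had an E16.5-only peak 17443 bp downstream. Its E13.5 peaks 1634 and 18157 bp upstream recurred. Sox10, a factor of the oligodendrocyte lineage, had a single E16.5 peak, 28870 bp upstream, and no E13.5 peak. Nfix, a nuclear factor I gene, had one 37779 bp upstream beside a recurring peak.

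Radial glia and astrocyte genes overlap with that group through Sox2 and had 3 of 19 genes (15.8%) near an E16.5-only peak. Without the dense loci the count was 2, and the share of all protein-coding genes was 2.08%. Of the same 19 genes, 3 were near an E13.5-only peak and 1 near a recurring one. Nes, the gene of the progenitor filament protein nestin, had its only listed peak 10156 bp upstream at E16.5. Id3, an inhibitor of basic helix-loop-helix factors, had its only peak 8186 bp upstream. No E13.5 peak was assigned to Nes or Id3.

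Of the 14 regulators of ganglionic eminence progenitors, 3 (21.4%) had an E16.5-only peak nearby, against 2.08% of all protein-coding genes. The 3 became 1 without the dense loci or at a matching limit of 1000 bp, and 0 with the inner bound at 10 kb. A recurring peak was near 6 (42.9%) and an E13.5-only peak near 6 (42.9%), against 3.39% and 2.39% of all protein-coding genes. Dlx1 and Dlx2 are neighbouring homeobox genes needed for the differentiation of GABAergic neurons, and they share 1 E16.5-only peak. It lay 6981 bp downstream of Dlx1 and 11660 bp downstream of Dlx2, and the closest E13.5 peak was 799 bp away, at 7780 bp from Dlx1. That E13.5 peak had its own E16.5 match at 7966 bp, so the E16.5-only peak stood beside it. Gsx2, a homeobox gene that sets the identity of lateral eminence progenitors, had a single peak in each list. The E13.5 peak lay 51693 bp and the E16.5 peak 9119 bp downstream of Gsx2.

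Genes of striatal neurons of both types had 3 of 19 members near an E16.5-only peak, against 7 near a recurring and 3 near an E13.5-only one. Gad1 and Gad2 encode the enzymes that make the transmitter GABA. At Gad1 the E16.5-only peak lay 6185 bp downstream, next to a recurring peak listed 2428 bp downstream at E13.5 and 2401 bp downstream at E16.5. At Gad2 it lay 26924 bp upstream, next to a recurring peak at 1985 and 1994 bp upstream. A second E16.5-only peak, 29078 bp upstream of Apbb1ip, was also assigned to Gad2, at 122811 bp downstream. Bcl11b, a zinc finger gene needed for medium spiny neurons to mature, had one 33506 bp downstream. All 3 Bcl11b peaks at E13.5, between 75165 and 195193 bp downstream, recurred, and a further E16.5 peak without an E13.5 counterpart lay 4547 bp downstream, too near to the TSS for the class.

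**Figure D4:**
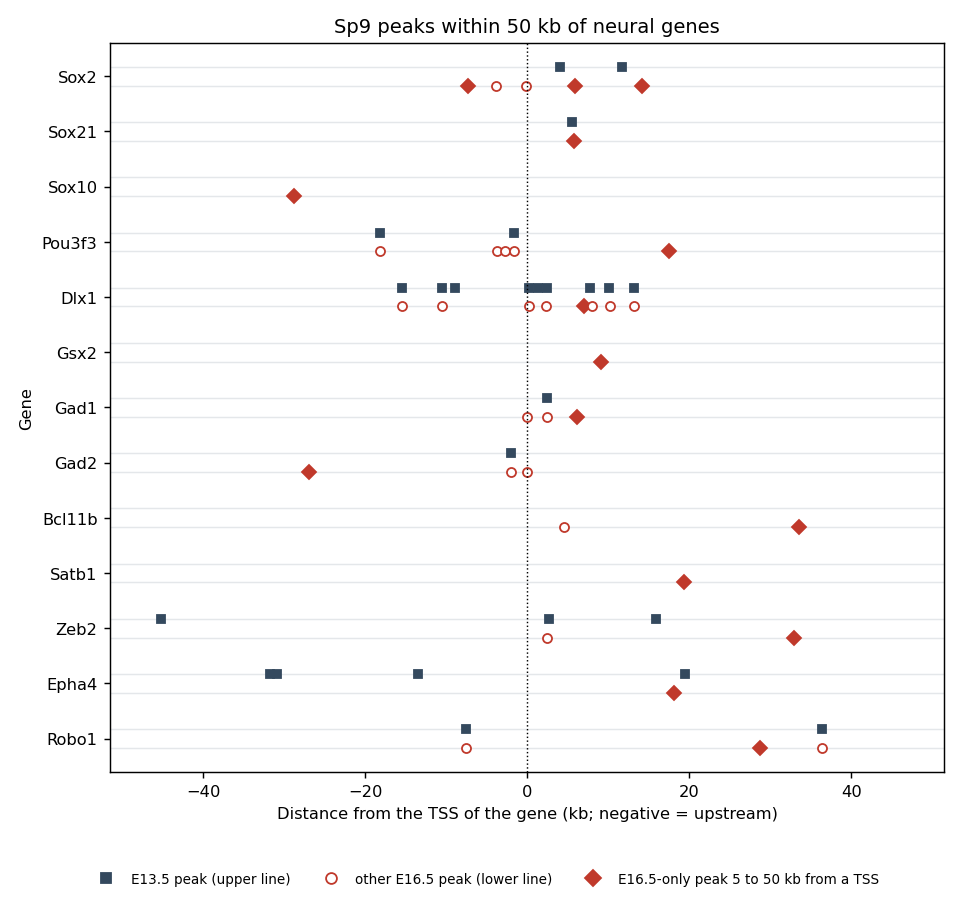
Positions of Sp9 peaks within 50 kb of 13 neural genes (rows), as distance from the TSS of the gene (horizontal axis, kb, negative upstream): squares on the upper line are E13.5 peaks, open circles on the lower line other E16.5 peaks and diamonds E16.5-only peaks. Sox2 has 3 diamonds and no E13.5 peak directly above any of them, and Sox10, Gsx2, Bcl11b and Satb1 have no E13.5 peak in the window.

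Of the 11 genes of D2-type medium spiny neurons, the neurons that carry the dopamine receptor Drd2, none had an E16.5-only peak of this class within 50 kb. At the 2.08% of all protein-coding genes, fewer than 1 gene is predicted in a list of this size. Recurring peaks were near 4 of the 11 genes and E13.5-only peaks near 1. Sp9, Sp8 and Six3 had no E16.5-only peak of this class at any distance. The single Drd2 peak, 67984 bp downstream at E16.5, nevertheless belongs to the class, because it lay 18410 bp downstream of the neighbouring gene Ankk1. Neither Drd2 nor Ankk1 had an E13.5 peak. Of the 10 D1-type genes, 4 had a recurring peak and 1, Chrm4, an E16.5-only one. Chrm4 encodes a muscarinic acetylcholine receptor, and its only peak lay 47312 bp upstream.

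In the list for the medial eminence and cortical interneurons, 3 of 14 genes (21.4%) had an E16.5-only peak, against 2.08% of all protein-coding genes. The count was also 3 for E13.5-only peaks and was 2 for recurring ones. Satb1, a chromatin organiser of maturing interneurons, had 1 peak at E16.5, 19342 bp downstream, and none of its 3 E13.5 peaks, at 66051 and 84225 bp downstream and 768548 bp upstream, was listed again. Zeb2, a repressor that directs interneurons to the cortex, had one 32929 bp downstream. The E13.5 peaks of Zeb2 at 45193 bp upstream and 2731 and 15830 bp downstream had no match within 200 bp, although the E16.5 list held a peak 2407 bp downstream. Erbb4, the neuregulin receptor of migrating interneurons, had one 49757 bp upstream. Olfactory bulb interneurons and the caudal and dorsal parts of the eminences were covered by 14 genes, none with one within 50 kb. At 2.08%, fewer than 1 gene is predicted in a list of this size. Recurring peaks were near 2 of these 14 genes and E13.5-only peaks near 1.

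Among 28 axon guidance genes, 3 (10.7%) had an E16.5-only peak, 7 a recurring one and 4 an E13.5-only one. Of all protein-coding genes, 2.08%, 3.39% and 2.39% were near such peaks, in the same order. Epha4, an ephrin receptor gene, had its E16.5-only peak 18124 bp downstream, 1358 bp from the E13.5 peak at 19482 bp. The other 3 E13.5 peaks within 50 kb of Epha4, at 31829, 30952 and 13462 bp upstream, were not found at E16.5. Robo1, a Slit receptor gene, kept its E13.5 peaks 7529 bp upstream and 36346 bp downstream and had an E16.5-only peak between them, 28727 bp downstream. Plxna2, a semaphorin receptor gene, had one 37632 bp upstream.

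Among genes of the electrical and synaptic machinery, 2 of 28 voltage-gated channel genes (7.14%) were near an E16.5-only peak and 2 near a recurring one. The 2 near an E16.5-only peak were the potassium channel genes Kcnd3, with a peak 41094 bp downstream, and Kcnq3, with a peak 46941 bp downstream. The Kcnq3 peak lay 253 bp from an E13.5 peak at 46688 bp, just over the limit. Of 30 receptor genes 1 (3.33%) was near an E16.5-only peak and 1 near a recurring one, against the 2.08% of all protein-coding genes near an E16.5-only peak. The former was the GABA-A receptor subunit gene Gabrb1, 47026 bp downstream and with no E13.5 peak. None of the 21 synaptic adhesion and scaffold genes and none of the 20 cadherin genes was near an E16.5-only peak. At 2.08%, fewer than 1 gene is predicted in lists of these sizes. Recurring peaks were near 4 and 3 of these genes, and E13.5-only peaks near 1 and 4.

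In the Notch pathway 2 of 19 genes (10.5%) were near an E16.5-only peak, against 1 near a recurring and 1 near an E13.5-only peak. The 2 became 1 with the inner bound at 10 kb, and also when only the nearest gene of a peak counted. The 2 genes were the ligand gene Dll4, 12292 bp downstream, and Lfng, a glycosyltransferase that modifies Notch, 36842 bp upstream. Neither had an E13.5 peak. For the Lfng peak another gene was nearer. Wnt7a, a secreted Wnt ligand, was the only 1 of 31 genes (3.23%) of the Wnt, FGF, BMP and hedgehog pathways, with a peak 29580 bp upstream. Its E13.5 promoter peak 111 bp upstream had no E16.5 match. Ccne1, a cyclin of the entry into S phase, was the only 1 of 21 cell cycle genes (4.76%), with a peak 22488 bp downstream. Elavl2, a neuronal RNA-binding protein gene, was the only 1 of 20 general neuronal genes, with a peak 28191 bp downstream and no E13.5 peak. Emx2, a homeobox gene of the cortex, was the only 1 of 18 pallial genes (5.56%), with a peak 8570 bp downstream beside 2 far peaks that recurred. The SP/KLF family (21 genes), nuclear receptors (18), endothelium, microglia and blood (14), liver and heart muscle (14) and housekeeping genes (15) had none. At 2.08% the background itself predicts fewer than 1 gene in lists of these sizes.

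The genes with the most E16.5-only peaks were not those of the neural lists. Itln1, a lectin gene, had 10, Cd244, an immune receptor gene next to it, 9, and 1600014C10Rik and Mroh2a 7 each. Abt1, Plekhf1 and Zfp322a had 6 each, and Hjurp, a centromere chaperone gene, Cwc22, a splicing factor gene, and Hsf2, a heat shock factor gene, 5 each. Several of these are pairs that share peaks: all 6 peaks of Abt1 were also those of Zfp322a. They lay 11142 to 22049 bp downstream of Abt1, which had 1 E13.5 peak at 11447 bp. The 5 peaks of Hsf2 lay 39028 to 48375 bp upstream, where the E13.5 list had none, and the 11 E16.5 peaks within 50 kb of Mroh2a also had no E13.5 peak in that window. At Cwc22 the E13.5 list was the fuller one, with 36 peaks within 50 kb against 8 at E16.5.

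**Figure D5:**
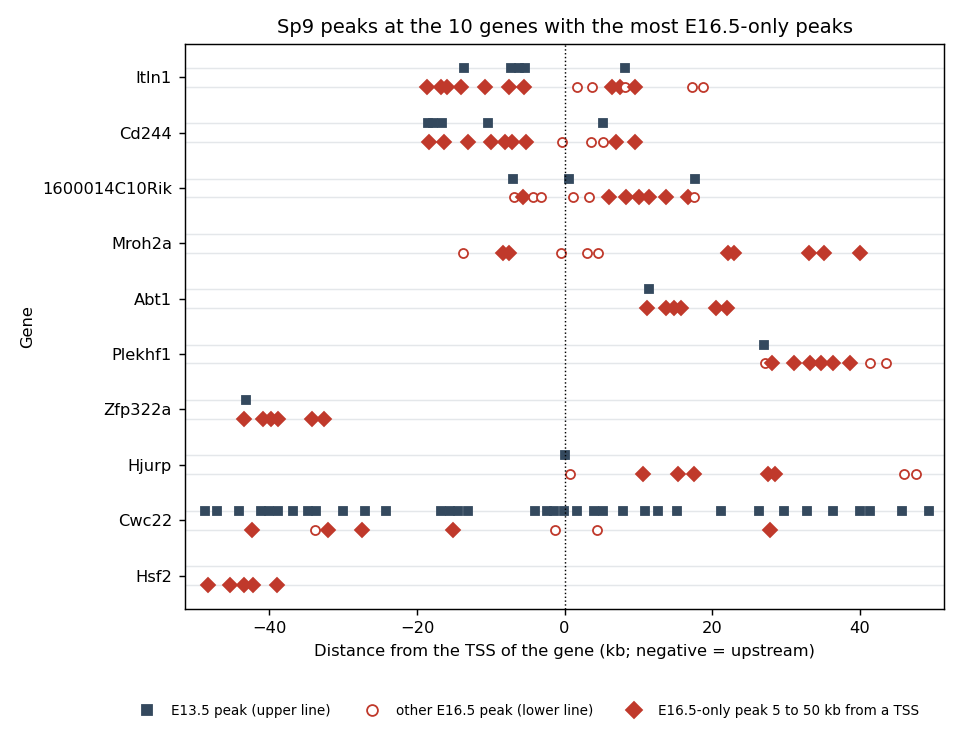
Positions of Sp9 peaks within 50 kb of the 10 genes with the most E16.5-only peaks (rows), as distance from the TSS of the gene (horizontal axis, kb, negative upstream): squares on the upper line are E13.5 peaks, open circles on the lower line other E16.5 peaks and diamonds E16.5-only peaks. Mroh2a and Hsf2 have no E13.5 peak in the window, and Cwc22 has 36.

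Genes with 5 or more peaks within 50 kb in either list are called dense loci here. They held 59 of the 445 E16.5-only peaks (13.3%, 10.4 to 16.7), 36 of 754 recurring E16.5 peaks (4.77%, 3.47 to 6.54) and 44 of 550 E13.5-only peaks (6.01 to 10.6%). Another E16.5 peak of the same gene lay within 10 kb of 111 E16.5-only peaks (24.9%) and of 17.1% of recurring ones. For E13.5-only peaks, 21.3% had another E13.5 peak as near. Without dense loci these shares were 14.8%, 13.9% and 15.2%. The share with both start sites within 50 kb was 28.1% against 21.1% without them. Sox2, Dlx1, Dlx2 and Pou3f3 count as dense loci too, and without these loci 25 of the 438 listed genes had an E16.5-only peak. Of the E16.5-only peaks 21 (4.72%, 3.11 to 7.11) were divided by the authors into lettered entries, against 8 recurring E16.5 peaks (1.06%, 0.539 to 2.08). Among E13.5-only peaks 20 of 550 (3.64%, 2.37 to 5.55) were divided. Without dense loci the shares were 2.59%, 0.696% and 0.593%. The most divided E16.5-only peaks were one 27911 bp downstream of Cwc22 with 58 entries and one 18583 bp downstream of Sfi1 with 54.

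Some genes had both an E16.5-only peak at a distance and Sp9 at the promoter. The nearest gene of 75 E16.5-only peaks (16.9%, 13.7 to 20.6) had an E16.5 peak within 1 kb of its TSS, against 15.6% (13.2 to 18.4) of recurring peaks. In 46 cases (10.3%, 7.84 to 13.5) that gene had none within 1 kb at E13.5, against 7.16% (5.53 to 9.23) of recurring peaks, and the intervals overlap. Counted by gene, 44 genes had an E16.5-only peak within 50 kb and an E16.5 peak between 250 bp upstream and 50 bp downstream of the TSS, and 28 of them (63.6%) had no E13.5 peak within 1 kb. The share was nearly equal, 63.4%, over all 1327 genes with an E16.5 peak at that place. Besides Sox2, Gad1 and Gad2, the 28 include Plxnb2, a plexin receptor gene, with peaks 7512 bp downstream and 88 bp upstream, and Spen, a transcriptional corepressor gene, with peaks 8152 and 119 bp upstream. Tgfbr1, a TGF-beta receptor gene, had peaks 46210 bp downstream and 113 bp upstream. Of the 44 genes, 37 matched a RefSeq promoter, with 46 windows of 250 bases in all, and 31 windows (67.4%) held GGGCGG on either strand. The share was 73.8% of 1300 windows of all genes with an E16.5 peak there, 52.4% of 466 windows of genes with an E16.5-only peak and no peak there, and 32.7% of all 32851 windows. A match to these letters is a description and not a bound site.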

How the data were processed

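Sp9 ChIP-seq peak lists of basal ganglia at E13.5 and E16.5 were used, with 1 ChIP library each; the inputs have no list used here. Build mm9 and the tools MACS2 2.1.0, BWA 0.6.2, bcl2fastq 1.8.4 and CASAVA 1.8.2 stand, without roles, in the submitters' processing notes. No peak threshold was found in the labels or headers. The authors assigned peaks, per the file headers, to genes by domains of 5000 bp upstream and 1000 bp downstream of the TSS, extended up to 1000000 bp, with curated domains. The deposited values are text: numbered peaks per gene with their signed distance in bp. They carry no depth.

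Lettered entries were counted as 1 peak. A gene listed on more than 1 row (more than 1 TSS) kept all its distances. Of 487 gene names, 475 matched the RefSeq table (GRCm38.p6, used for names and gene type), 38 through a synonym. RefSeq also gave the promoter sequences and windows, whose start sites may differ from those behind the mm9 distances. A gene counted as near a peak when the peak was assigned to it within 50 kb. Shares carry 95% Wilson intervals and differences Newcombe intervals. Sides of the TSS were compared by two-sided Fisher's exact tests with Benjamini-Hochberg adjustment for 2 comparisons and a threshold of 0.05. Matching and test were tested on simulated data. The tools were matplotlib 3.10.9, numpy 2.4.6, scipy 1.17.1 and Python 3.11.15.

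The members and gene lists were chosen with earlier results of these data known. The rule for naming took the 10 genes with the most members, up to 4 genes of each list (most members, then nearest), the members at each bound, and Sp9, Sp8 and Six3. Nfix, Drd2, Ankk1, Sfi1, Hdac4 and the genes named for their promoter peaks or families were chosen after their values were seen. Some items the rule names are not reported here. Alternatives were matching limits of 100, 500 and 1000 bp, matching over the nearest gene only, bounds of 10 and 100 kb, lettered entries counted singly, dense loci left out and the nearest gene only.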

Additional observations from a re-analysis of the deposited data

How the results depend on the processing

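No paired analysis was possible because each stage had 1 ChIP library. Under the 8 alternatives that change which peaks are counted or matched, the number of E16.5-only peaks ranged from 359 to 674, the latter with the outer bound at 100 kb. With that bound the upstream share exceeded that of recurring E16.5 peaks by 6.76 percentage points and that of E13.5-only peaks by 5.80 points (adjusted Fisher's exact p = 0.00877 and 0.0218). Neither passed under any other of these 8, over which the adjusted p ranged from 0.00877 to 0.622. With each lettered entry counted, the first difference turned to -2.04 points (adjusted Fisher's exact p = 0.485), the upstream share was 39.4%, the share assigned to 2 genes 84.8%, the share with lettered entries 30.1%, the share whose genes have an E13.5 peak 77.4% and the E16.5-only share of the class 44.3%. That share was 44.5% at 100 bp and 33.9% at 1000 bp, by construction of the limit. At 100 bp 74.5% of the peaks had a gene with an E13.5 peak. The share with lettered entries was 2.90% at 500 bp, 2.96% at 1000 bp and 2.59% without dense loci. For these last values the cause was not tested. The listed genes near an E16.5-only peak numbered 21 to 36, and the protein-coding genes 367 to 533. Of 216 counts of single lists under the alternatives, 12 moved by over 1.5 times. Leaving out dense loci for the share with both start sites nearby, and for the share with another peak within 10 kb, was chosen after seeing the data. With 1 library per stage and no heights, a peak near the authors' threshold at 1 stage cannot be told from one absent there.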

Other observations

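Genes were also counted by symbol family. Some of the families, among them the Chd genes, were chosen after the data were seen, and no test was run. Of the 9 Chd genes, which encode chromodomain helicases that move nucleosomes, 5 had an E16.5-only peak within 50 kb, against 2.08% of protein-coding genes. None of the 9 had a recurring or an E13.5-only peak of this distance class. The peaks lay 6670 bp upstream of Chd4, 20327 bp upstream of Chd8, 28743 bp downstream of Chd3, 43325 bp upstream of Chd7 and 47621 bp downstream of Chd9. Chd4 and Chd8 had no E13.5 peak, whereas Chd7 had 3 and Chd9 had 7 at any distance. Chd3 also had a recurring peak, 2625 bp (E13.5) and 2536 bp (E16.5) downstream, and Chd7 one at 113371 and 113356 bp upstream. For some of these peaks another gene was nearer. The Chd3 peak lay 14405 bp from Kcnab3 and the Chd9 peak 31959 bp from Gm6658. Hdac4, a single histone deacetylase gene picked after the data were seen, had an E16.5-only peak 32287 bp upstream and an E13.5 peak 76137 bp upstream. Histone deacetylase genes were not counted as a family.

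Rgs4 and Rgs5, whose products speed the shut-off of G proteins, made up 2 of 21 Rgs genes, a family also chosen after the data were seen, and 2 of the 21 had an E13.5-only peak. Rgs4 and Rgs5 shared 1 E16.5-only peak, 42379 bp downstream of Rgs4 and 49762 bp downstream of Rgs5, and neither had an E13.5 peak. Of 22 phosphodiesterase genes (chosen likewise) 2, Pde2a and Pde4d, had an E16.5-only peak and 1 a recurring one. The neighbouring homeobox genes Hoxc6 and Hoxc8 shared a peak 10167 bp upstream of Hoxc6 and 8690 bp downstream of Hoxc8, and no E13.5 peak was assigned to either. They were the only 2 of 39 Hox genes (5.13%). The share was 9.52% for the Rgs genes and 9.09% for the phosphodiesterase genes, against 2.08% of all protein-coding genes. The Rgs count and the Hox count each rest on 1 shared peak. Of 1110 Olfr olfactory receptor genes 2 (0.180%) were near an E16.5-only peak, of 375 solute carrier genes 7 (1.87%) and of 81 ribosomal protein genes 1 (1.23%). For Zfp zinc finger genes the count was 10 of 394 (2.54%), for Tmem transmembrane protein genes 8 of 238 (3.36%), for Kcn potassium channel genes 5 of 94 (5.32%) and for Fox genes 3 of 44 (6.82%), against the 2.08% of all protein-coding genes. Near recurring and E13.5-only peaks these 4 families had 16 and 10, 5 and 5, 3 and 4, and 6 and 4 genes.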
